A study of Caenorhabditis elegans with 9 samples.

Results

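Mitochondrial ribosomal proteins build the ribosome inside mitochondria, and their mRNAs were followed here in whole Caenorhabditis elegans in which RPOA-2, a core subunit of RNA polymerase I, was depleted. The members were chosen by name, as every gene whose symbol begins with mrpl (large subunit) or mrps (small subunit) followed by a number. There were 71 of them, 42 mrpl and 29 mrps, among 13246 genes listed with a count in at least 1 library. RNA was measured in 9 libraries of 4 groups, and all strains carried degron::GFP::rpoa-2, the rpoa-2 gene tagged so that the plant protein TIR1 can target its product for degradation when the auxin IAA is given. The controls carried no TIR1, received no auxin and were taken at 18 h (n = 2) or 24 h (n = 2). Hypodermal depletion (col-10p::TIR1, 1 mM auxin, 24 h, n = 3) places TIR1 under the promoter of a cuticle collagen gene of the hypodermis, the worm's epidermis. Global depletion (eft-3p::TIR1, 1 mM auxin, 24 h, n = 2) places it under the broadly active promoter of a translation elongation factor gene. TIR1 and auxin came with depletion in every depleted library, so their effects cannot be told apart from it. The titles say embryo and the animals were grown at 16 °C from synchronized eggs, but the stage at harvest and the separate origin of the replicates are not stated in the labels, and p-values then measure only how these samples vary, which may be technical variation.

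RNA polymerase I transcribes the large rRNA precursor of the cytosolic ribosome in the nucleolus. The mitochondrial ribosome has its own rRNAs, transcribed from mitochondrial DNA by another polymerase, while its proteins are encoded in the nucleus, translated on cytosolic ribosomes and imported. It translates the few membrane proteins of the respiratory chain and ATP synthase that mitochondrial DNA encodes. In C. elegans, lowering mrps-5 is known to extend lifespan and to activate the mitochondrial unfolded protein response. Some of its proteins descend from bacterial ribosomal proteins (43 members by name here) and others are found only in mitochondria (28 members). The subunit in a name is not always the place of the protein: the human counterparts of mrps-30 and mrps-18A sit in the large subunit.

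The genes lie on chromosomes I (15 members), II (13), III (22), IV (11) and V (10) of WBcel235, with none on X. Their coding sequences run from 231 to 1569 bp with a median of 597 bp, against 1146 bp over all listed genes, and they have a median of 4 exons, against 6. Many stand close behind another gene, as genes do in the operons of C. elegans, whose joint transcript is cut and trans-spliced. For 28 of the 71 members (39.4%) the next protein-coding gene upstream on the same strand ends less than 500 bp away, and this holds for 21.3% of all listed genes. At 18 members (25.4%) the gap lies between 50 and 150 bp, against 8.67% of listed genes. These are positions in the annotation and not measured operons. The pairs include 2 of the ribosome's own: mrps-2 ends 105 bp before mrpl-4 begins, and dap-3, whose human counterpart is a GTP-binding protein of the small subunit not named mrps, ends 105 bp before mrps-22.

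**Figure D1:**
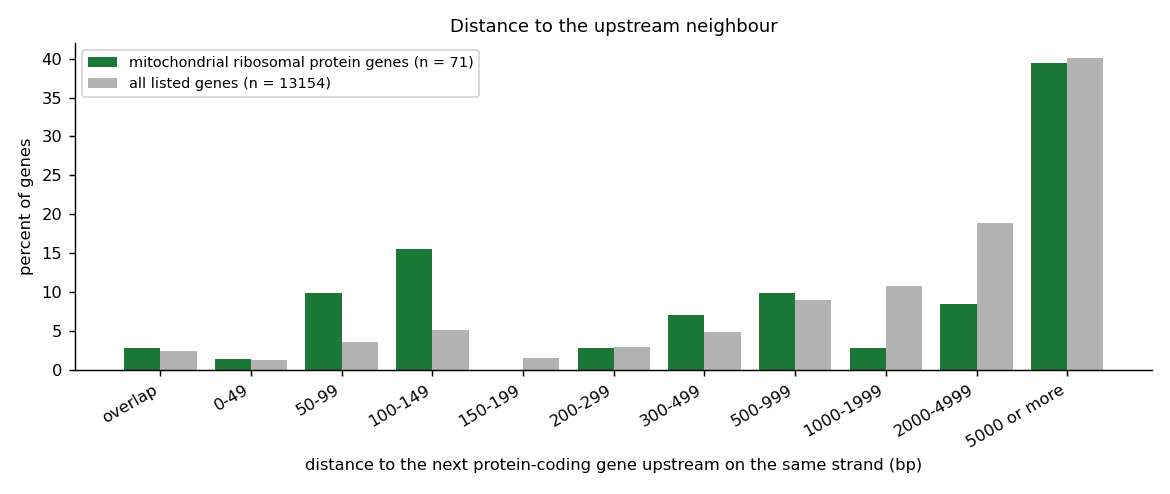
Percent of genes (bars from 0) by distance in bp from the next protein-coding gene upstream on the same strand, for the 71 mitochondrial ribosomal protein genes (green) and all listed genes with such a neighbour (grey). The members exceed all genes at gaps between 50 and 150 bp and fall below them in the pair of bins before the last.

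The deposited table lists no count below 3, so an unlisted gene had 0, 1 or 2 counts. Library totals ran from 166455 to 2134185 counts and were lowest in the controls. The members held 495 and 394 counts in the 18 h control libraries, 952 and 1392 in those at 24 h, 3450 and 3306 under global depletion and 4747, 4172 and 2197 under hypodermal depletion. At 18 h 49 members were listed in each library, at 24 h 67 and 68 in the controls, 71 in each hypodermal library and 69 in each global library. Levels are given in CPM, counts scaled to a common library total with edgeR's TMM factors. Before these factors, 3 counts were worth 15.2 and 18.0 CPM in the 18 h libraries and 1.41 to 9.25 CPM in the others. These floors mark the lowest listed count and do not measure error. The mRNA of rpoa-2 itself does not check the labels, since auxin acts on the protein. It stood at 156.0 and 259.7 CPM in the 24 h controls, 355.1 and 369.3 in global depletion and between 238.3 and 290.4 in hypodermal depletion. It rose in global depletion by 0.77 on the log2 scale (SE 0.25, adjusted p = 0.0423), a call lost under 6 of 19 alternatives, with the highest adjusted p without 24 h control replicate 1 (0.45, adjusted p = 0.468).

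Levels between genes are compared as CPM per kb of coding sequence, averaged over the 4 groups, for the 40 members listed in all 9 libraries. Their levels ran from 33.5 to 225.7 CPM per kb with a median of 55.2. The highest was mrpl-12, the counterpart of bacterial L7/L12, which forms the stalk that receives translation factors. It stood at 246.4 and 314.1 CPM per kb in the 18 h and 24 h controls, 178.6 under hypodermal depletion and 163.8 in global depletion. Next came the small subunit genes mrps-11 (139.8), mrps-17 (120.3) and mrps-5 (103.3), all with bacterial counterparts. In global depletion mrps-11, at 164.1 CPM per kb, stood level with mrpl-12. The lowest of the 40 were mrpl-17 (37.4), mrps-9 (35.7), mrpl-22 (34.9), whose bacterial counterpart lines the exit tunnel, and mrpl-19 (33.5), and these neighbours in the order lie closer together than any of them varied between groups.

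**Figure D2:**
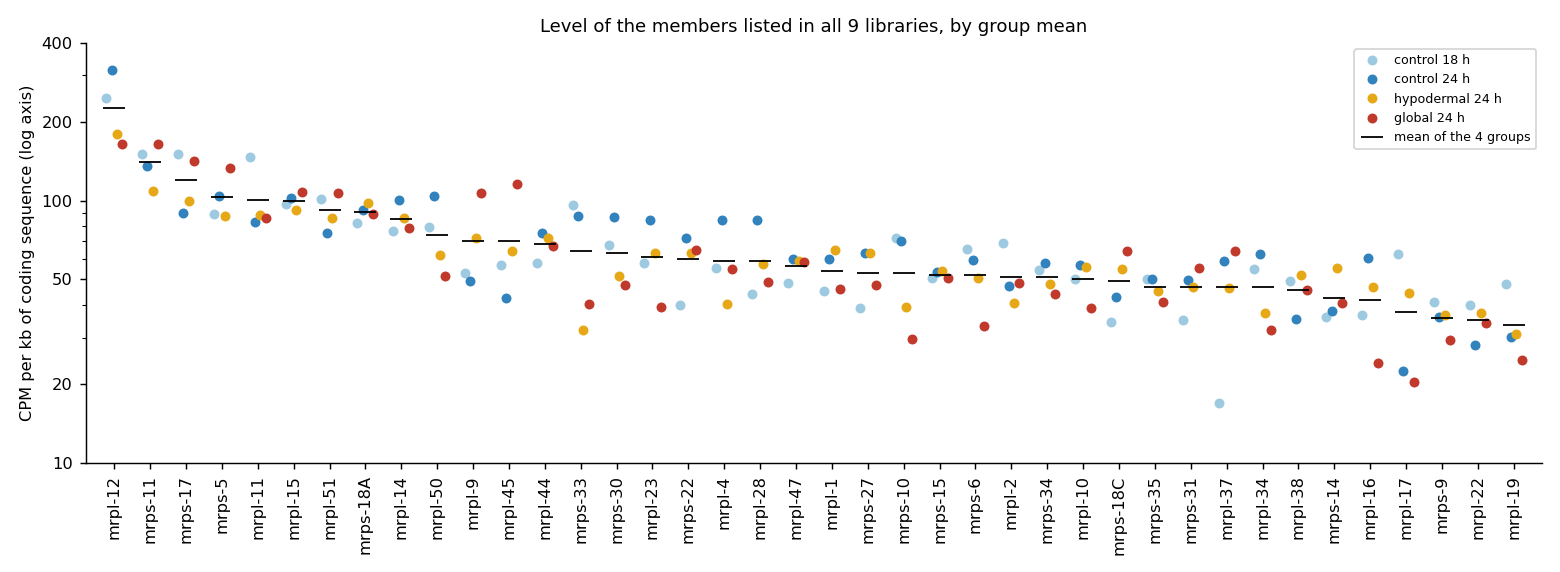
Group mean level in CPM per kb of coding sequence (log axis) for the 40 members listed in all 9 libraries, ordered by the mean of the 4 groups (black bars), with 1 point per group. mrpl-12 leads at 225.7, and mrpl-37 has its 18 h point (light blue) far below its others.

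Summed over all members, the mRNAs of the mitochondrial ribosome held much the same level in depleted and control animals at 24 h. The 24 h controls summed to 3031 and 2802 CPM, against 2601 and 2846 CPM under global depletion and 2286, 2795 and 2845 CPM under hypodermal depletion. The mean over global libraries was 0.934 of that of the 24 h controls, and that over hypodermal libraries 0.906, and in each depletion the highest library lay between the control libraries and the others lay below both. In the 18 h controls the sum was 2441 and 2380 CPM, and the 24 h mean was 1.21 times the 18 h mean. With every unlisted count taken as 2, the most it can have been, the sums were 2658 and 2646 CPM at 18 h against 3056 and 2814 at 24 h. In bulk samples, fewer cells of a type and less RNA per cell cannot be told apart.

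Both subunits kept their proportion. Counts of mrpl genes were 1.29 to 1.39 times those of mrps genes in all 9 libraries. The cytosolic ribosome was followed beside them: its 79 protein genes held 47.0 and 44.9 times as many counts as the members in the 24 h controls, 43.3 and 38.5 times as many under global depletion and 52.2, 50.3 and 51.3 times under hypodermal depletion. The 3 hypodermal libraries thus stood above both 24 h controls in this proportion and the 2 global libraries below both. The 18 h controls, at 41.0 and 48.1, spanned both 24 h controls and 1 of the global libraries. Counts of the proteins encoded by mitochondrial DNA were between 2.26 and 3.11 times those of the members.

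**Figure D3:**
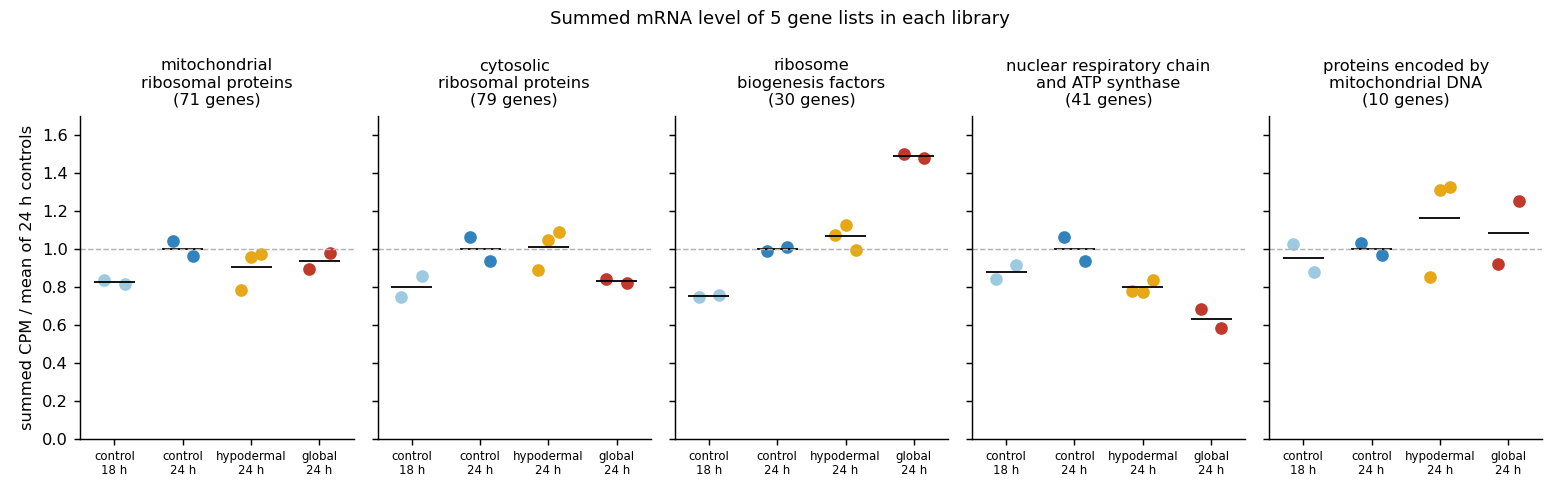
Summed CPM of 5 gene lists in each library (points), divided by the mean of the 24 h controls (dashed line at 1), with group means as black bars. The members stay between 0.78 and 1.04 in every library, the ribosome biogenesis factors reach about 1.5 in global depletion and the nuclear respiratory chain genes fall to 0.632 on average.

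Of the 71 members 67 had enough counts to be tested, among 8035 genes, and mrpl-54, mrps-18.C, mrps-21 and mrps-24 had too few. Global depletion left most of the 67 without a detectable change against the 24 h controls. Only mrpl-45 rose and only mrpl-12 fell at an adjusted p below 0.05 (edgeR), so that 2 members were called, while 8.45% of all genes tested were (3.43% higher, 5.02% lower). DESeq2 also called 2 members. Its share over all genes is not given here or below, so its counts do not set the members or other lists apart. At an unadjusted p below 0.05 there were 2 higher and 8 lower, 14.9% of the members against 20.8% of all genes. The median fitted log2 fold change was -0.15 over the members and 0.01 over all genes. By subunit the medians were -0.07 (41 mrpl tested) and -0.21 (26 mrps tested).

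The rise of mrpl-45 is the larger of the calls. Its human counterpart is a mitochondria-specific protein at the exit tunnel that ties the ribosome to the inner membrane, where the new proteins are inserted. mrpl-45 stood at 66.9 and 24.2 CPM in the 24 h controls, 132.7 and 115.4 in global depletion, 62.1, 70.4 and 73.8 under hypodermal depletion and 49.3 and 72.5 in the 18 h controls. Both global libraries stood above every other library, and 24 h control replicate 2, with 12 counts, stood below all the rest. Against the 24 h controls the level in global depletion was 2.92-fold higher (log2 1.55, SE 0.37, adjusted p = 0.00384). Without that control library the change of mrpl-45 was 0.85 on the log2 scale (adjusted p = 0.270, with mrpl-9 called in its place), without global replicate 1 the adjusted p was 0.0535, and with all libraries thinned to the lowest total it was 0.395.

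The fall of mrpl-12, the stalk protein with the highest level, was seen in both depletions and called in one. The 24 h controls had 175.1 and 151.0 CPM of mrpl-12 and those at 18 h 98.6 and 157.1, while global depletion had 82.2 and 87.8 and hypodermal depletion 93.4, 81.1 and 103.6. All 5 depleted libraries lay below both 24 h controls, while 18 h control replicate 1 lay among the depleted ones. How many genes share this order was not counted. The change was -0.93 on the log2 scale in global depletion (SE 0.29, adjusted p = 0.0319) and -0.81 in hypodermal depletion (SE 0.26, adjusted p = 0.0594). Both comparisons use the same 24 h controls. The difference between the depletions was -0.12 (95% interval -0.62 to 0.39). The global call was lost under 8 of the alternatives tried, among them leaving out any of the 4 libraries compared (adjusted p 0.0626 to 0.203).

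**Figure D4:**
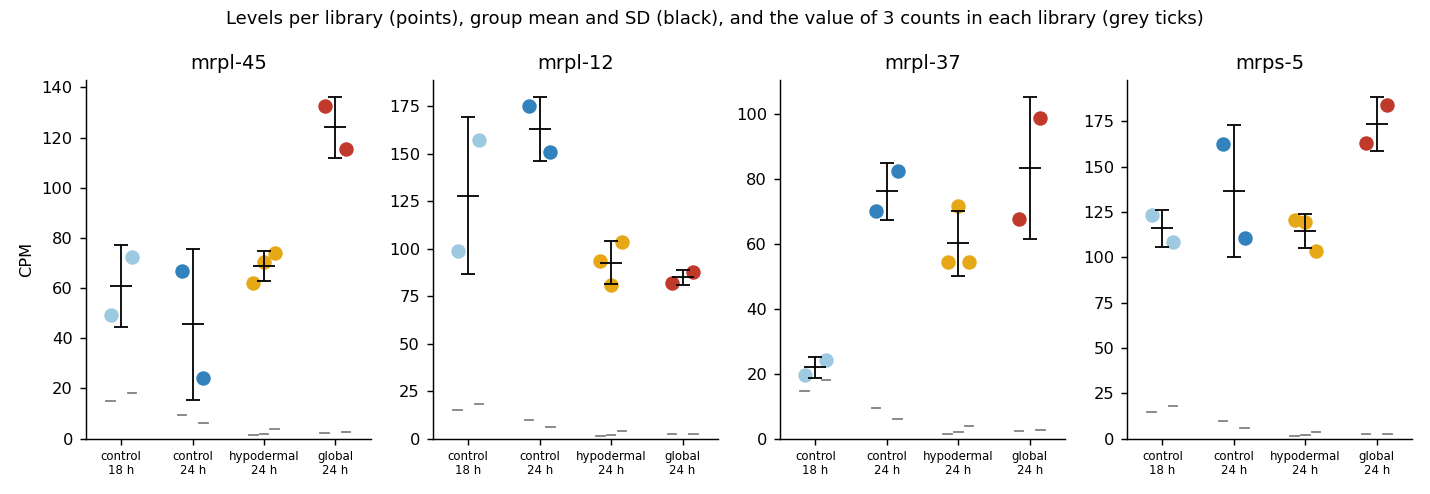
CPM per library (points), group mean and SD (black) and the CPM that 3 counts stand for in each library (grey ticks), for mrpl-45, mrpl-12, mrpl-37 and mrps-5. mrpl-45 is highest in the 2 global libraries, mrpl-12 is lower in all 5 depleted libraries than in the 24 h controls, and mrpl-37 is near the floor at 18 h.

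Among members below the threshold, the lowest fitted changes in global depletion belonged to mrpl-36, a very small protein with a bacterial counterpart (-1.95, SE 0.92, adjusted p = 0.212), mrps-18B (-1.32, SE 0.52, adjusted p = 0.114), mrpl-16 (-1.27, adjusted p = 0.170) and mrpl-35 (-1.25, adjusted p = 0.385). Without global replicate 2 the value of mrpl-35 was -4.23 and past the threshold (adjusted p = 0.0365); global replicate 1, then the only global library, does not list it, so this fitted value depends on the count taken for unlisted genes. mrps-18B stood at 57.3 and 38.2 CPM in the 24 h controls, 13.6 and 24.1 in global depletion and 20.7, 21.4 and 33.7 in hypodermal depletion, so that all depleted libraries lay below both 24 h controls. The same held for mrps-30 (-0.85, adjusted p = 0.0786) and mrpl-50 (-0.98, adjusted p = 0.0876), whose falls in global depletion were smaller but nearer the threshold. Other members had this order too, among them mrps-10, mrpl-28 and mrpl-34, and it was not counted over all genes. The 18 h controls of mrps-30 (103.6 and 108.7 CPM) and mrpl-50 (69.0 and 66.5 CPM) also lay below both 24 h controls. After mrpl-45 the highest fitted changes were those of mrpl-49 (1.23, adjusted p = 0.309), mrpl-41 (1.09, adjusted p = 0.390) and mrpl-48 (1.05, adjusted p = 0.419), all large subunit genes specific to mitochondria. Each of these had libraries at 3 to 5 counts or unlisted.

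In hypodermal depletion 0 of the 67 members passed the threshold with edgeR and 0 with DESeq2, while 5.07% of all genes tested did with edgeR. At an unadjusted p below 0.05 there were 5 members, all lower (7.46%, against 17.8% of all genes): mrpl-12, mrpl-4, mrps-30, mrps-33 and mrpl-50. The median was -0.04 over the members and 0.03 over all genes. The lowest change was that of mrps-33, a small mitochondria-specific protein of the small subunit (-1.44, SE 0.54, adjusted p = 0.120). The 24 h controls had 25.5 and 40.3 CPM of mrps-33, against 11.075, 16.1 and 9.1 under hypodermal depletion and 9.0 and 21.5 under global depletion. All 5 depleted libraries lay below both of these controls, an order not counted over all genes. The 18 h controls had 24.7 and 48.3 CPM of mrps-33. mrpl-4, whose bacterial counterpart reaches into the exit tunnel, stood at 73.2 and 78.5 CPM in the 24 h controls and at 36.6, 45.6 and 25.9 in hypodermal depletion (-1.05, SE 0.35, adjusted p = 0.0743). A member passed when 24 h control replicate 2 (mrpl-13) or either 18 h control (mrpl-12) was left out. In global depletion mrpl-4 was at 45.2 and 53.4 CPM (-0.63, adjusted p = 0.354). The next lowest were mrps-18B (-0.93, adjusted p = 0.289) and mrpl-13 (-0.82, adjusted p = 0.488). The value of mrpl-13 rested on 24 h control replicate 1, at 76.4 CPM against 8.1 in replicate 2, and was 1.34 without it. The highest changes were those of mrpl-17 (0.95, adjusted p = 0.482), mrpl-48 (0.81), mrpl-49 (0.79) and mrpl-45 (0.69, adjusted p = 0.329).

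**Figure D5:**
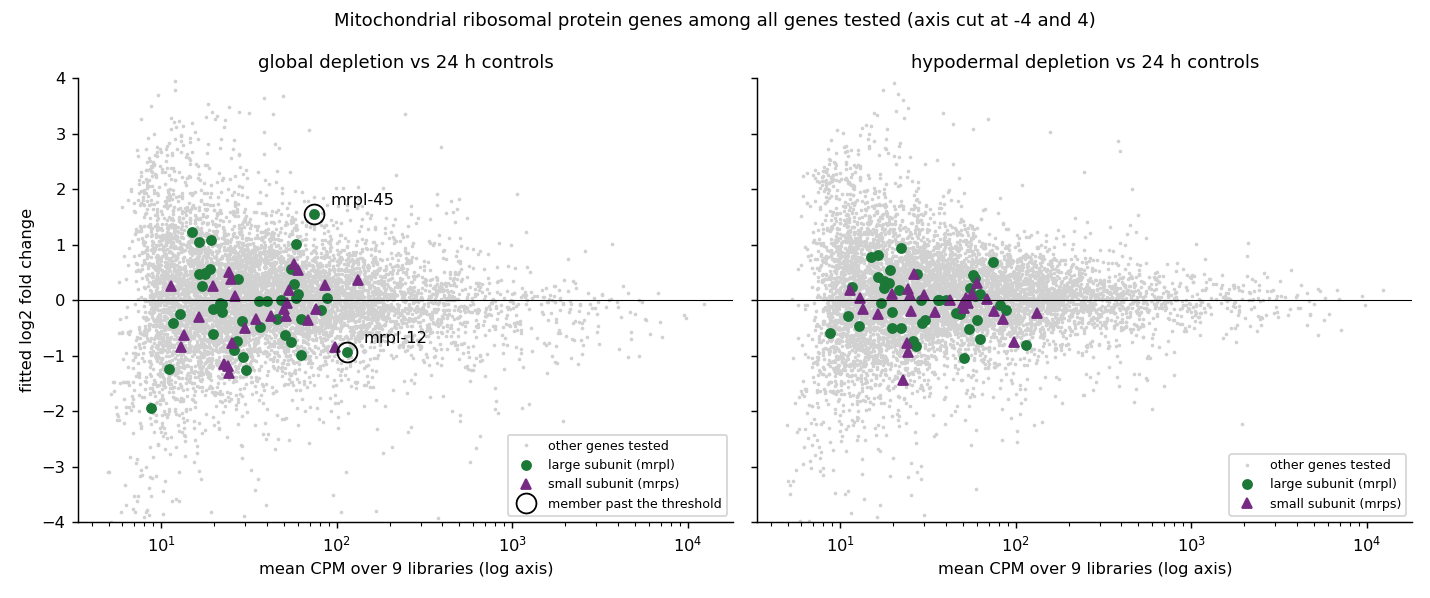
Fitted log2 fold change against mean CPM over 9 libraries (log axis) for 67 members by subunit (green circles, purple triangles) and the other genes tested (grey), for each depletion against the 24 h controls. The members lie around 0 within the cloud of all genes, and mrpl-45 and mrpl-12 are ringed as past the threshold in global depletion.

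How firmly an unchanged level can be stated depends on the width of the intervals, which joins depth, spread and the number of libraries. The 95% interval of the fold change lay within a 2-fold change either way for 12 of the 67 members in global depletion (17.9%, against 20.8% of all genes) and for 19 in hypodermal depletion (28.4%, against 28.1%). For the remaining members the interval reached beyond a 2-fold change, and of them mrpl-45 and mrpl-12 were called in global depletion. One of those with a narrow interval was mrps-5, at 162.4 and 110.7 CPM in the 24 h controls, 162.9 and 184.2 in global depletion, 120.4, 119.3 and 103.6 under hypodermal depletion and 123.3 and 108.7 at 18 h. The change of mrps-5 was 0.37 in global depletion (interval -0.18 to 0.93, adjusted p = 0.482) and -0.22 in hypodermal depletion (interval -0.74 to 0.30, adjusted p = 0.734). The lower global library of mrps-5, at 162.9, lay just above the higher control library, at 162.4, and the hypodermal libraries overlapped the controls.

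The depletions were also compared with each other. No member passed (0 with edgeR and 0 with DESeq2, against 4.38% of all genes with edgeR), and 3 had an unadjusted p below 0.05, all higher in global depletion (3 of 67, against 1125 of 8035 genes tested). These were mrpl-45 (0.86, SE 0.27, adjusted p = 0.0587), mrps-5 (0.59, SE 0.23, adjusted p = 0.163) and mrps-11 (0.60, SE 0.25, adjusted p = 0.224). The 2 global libraries stood above the 3 hypodermal ones for each of them: mrps-11 was at 98.0 and 106.7 CPM in global depletion and at 66.0, 63.7 and 73.8 in hypodermal depletion. mrpl-45 passed under 8 of the 19 alternatives, with adjusted p from 0.0100 to 0.809 over all of them.

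Between the undepleted controls at 18 h and 24 h 0 members passed with edgeR and 0 with DESeq2, against 3.04% of all genes with edgeR, and 4 had an unadjusted p below 0.05, all higher at 24 h (5.97%, against 16.7% of all genes). The median fitted change was 0.30 over the members and 0.01 over all genes. The member median moved with the treatment of low counts, to 0.62 without a filter on them (0.11 over all genes). Without 24 h control replicate 2 it was 0.52 (-0.01 over all genes). With the 9 members unlisted in both 18 h libraries placed at 3 counts in each, the median was 0.15. Among them mrps-18B had 57.3 and 38.2 CPM at 24 h, and their mean was 2.90 times that floor. The edgeR fit, with unlisted counts as 1, gave it an adjusted p of 0.0508, which does not test that ratio.

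The only member called by edgeR against the 18 h controls was mrpl-37, whose human counterpart is a mitochondria-specific protein of the large subunit. Its level was 19.7 and 24.2 CPM at 18 h, from 4 counts in each library, and 70.04 and 82.5 in controls at 24 h, 67.9 and 99.0 under global depletion and 54.4, 71.7 and 54.4 under hypodermal depletion. All 7 libraries at 24 h lay above both at 18 h. It was called against the 18 h controls in global depletion (1.93, SE 0.52, adjusted p = 0.00787), but not in the 24 h controls (1.82, SE 0.55, adjusted p = 0.0597) or in hypodermal depletion (1.47, SE 0.52, adjusted p = 0.0538). These 3 comparisons share the 18 h controls. Without 18 h control replicate 1 the adjusted p in global depletion was 0.0968, and without global replicate 2 it was 0.0728. Against the 24 h controls its change was 0.11 in global depletion and -0.35 in hypodermal depletion, neither past the threshold.

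It was the 1 member called in global depletion against the 18 h controls, where 14.7% of all genes tested passed, and 6 members had an unadjusted p below 0.05 (8.96%, against 27.5% of all genes). In hypodermal depletion against the 18 h controls 0 members passed with edgeR and 0 with DESeq2, 4 had an unadjusted p below 0.05 (5.97%, against 26.4% of all genes), and 13.1% of all genes passed with edgeR. The member medians were 0.06 and 0.14, against -0.02 and 0.03 over all genes. With the 9 unlisted members at the floor the member medians were -0.04 and 0.05. They were 0.63 and 0.71 without a filter on low counts (0.10 and 0.11 over all genes). With unlisted counts as 0 they were 0.36 and 0.49, where the medians of all genes were 0.31 and 0.36. Without 18 h control replicate 2 they were 0.39 in both (0.10 and 0.14 over all genes).

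Neighbours in the genome were looked at for the same pattern. Of the other genes on the same strand within 500 bp of a member, 44 were tested. Of these, 0 were called by edgeR in either depletion against the 24 h controls, while 8.45% and 5.07% of all genes were. At an unadjusted p below 0.05 there were 7 in global and 8 in hypodermal depletion (15.9% and 18.2%, against 20.8% and 17.8% of all genes), and DESeq2 called 1 and 0. Their median changes were 0.12 and 0.13. The gene 96 bp downstream of mrpl-45 is dss-1 and that 105 bp downstream of mrpl-37 is Y48E1B.3, and neither was called. dss-1 was unlisted in both 24 h controls and stood at 12.1 and 11.2 CPM in global depletion and at 9.63, 16.8 and 16.8 in hypodermal depletion. Its fitted changes, 2.17 (adjusted p = 0.200) and 2.44 (adjusted p = 0.140), depend on the count taken for unlisted genes, and those of Y48E1B.3 were -0.43 and -0.61 (adjusted p = 0.714 and 0.581). For 7 members the coding sequence overlaps an exon of another gene (mrps-18A, mrpl-14, mrpl-44, mrpl-28, mrps-35, mrpl-42 and mrps-16), and since no source used here gives the use of strand in counting, their values are uncertain. mrps-18.C and mrps-18C are different genes, on chromosomes II and III.

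The rest of the mitochondrial translation system was looked at too, in lists of 5 to 11 genes tested. Of all genes tested 8.45% were called by edgeR in global and 5.07% in hypodermal depletion. Lists this short may hold no call at these shares, so their zeros do not set them apart. Of the genes tested 0 of 5 translation factors, 0 of 11 aminoacyl-tRNA synthetases, 0 of 6 genes of mitochondrial DNA maintenance and transcription and 0 of 10 proteins encoded by mitochondrial DNA were called by edgeR or DESeq2 in either depletion against the 24 h controls. The maintenance list had 1 call in global depletion under 8 of 19 alternatives. Among these lists 1 translation factor under hypodermal depletion and 1 synthetase and 1 maintenance gene in global depletion had an unadjusted p below 0.05. Such small counts cannot be told apart from the shares of all genes at that threshold given above. The small subunit gene dap-3 was at 79.6 and 54.4 CPM in the 24 h controls, 70.1 and 62.8 in global and 52.0045, 67.0 and 67.3 in hypodermal depletion, with changes of 0.02 and -0.09 that did not pass. The median change of the genes in mitochondrial DNA was 0.14 in each depletion. The maintenance genes summed to 229.2 and 189.2 CPM in the 24 h controls, 288.8 and 304.8 in global depletion and 236.4, 245.2 and 283.6 in hypodermal depletion. The synthetases summed to 372.5 and 362.4 CPM in the 24 h controls, 413.2 and 427.9 in global depletion and 429.0, 441.6 and 372.9 in hypodermal depletion. All 5 depleted libraries lay above both 24 h controls for the maintenance genes, and 4 did for the synthetases, with hypodermal replicate 3 level with the higher control. The translation factors summed to 706.7 and 662.3 CPM in the 24 h controls, 623.5 and 653.4 in global depletion, below both, and 640.9 to 733.0 in hypodermal depletion, which overlapped them.

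The proteins that join the products of the mitochondrial ribosome in the respiratory chain and ATP synthase, encoded in the nucleus, had a lower summed level. Of 40 tested, 3 fell in global and 2 under hypodermal depletion and none rose, with medians of -0.44 and -0.13. Of all genes tested 8.45% were called in global depletion (5.02% lower) and 5.07% in hypodermal depletion. The counts of calls in this list and in the import and unfolded protein response lists lie near those shares and do not set the lists apart. The 24 h controls summed to 21533 and 18893 CPM, against 13799 and 11766 in global depletion and 15628 to 16952 in hypodermal depletion, so that all depleted libraries lay below both controls. The iron-sulfur subunit of complex III, isp-1, fell by 1.00 and by 0.83 on the log2 scale (adjusted p = 0.00159 and 0.00605). The ATP synthase beta subunit, atp-2, fell by 1.00 and by 0.63 (adjusted p = 0.00108 and 0.0414), and its hypodermal call was lost under 9 of 19 alternatives. The count in global depletion was 0 without global replicate 2, and that in hypodermal depletion was 1 when any of 5 libraries was left out (both 24 h controls, 18 h control replicate 2 and hypodermal replicates 2 and 3, each by itself). Of 18 import genes timm-17B.1, of the inner membrane translocase, fell in both depletions (by 1.35 and by 1.17, adjusted p = 0.00247 and 0.00579), with adjusted p of 0.178 without global replicate 2 in global depletion, and in hypodermal depletion 0.0692 without 24 h control replicate 2 and 0.157 in thinned libraries. Of 11 genes of the mitochondrial unfolded protein response, only atfs-1, its transcription factor, was called by edgeR, and DESeq2 called 1 gene in each depletion: atfs-1 fell by 0.81 in hypodermal depletion (adjusted p = 0.0397), and its change in global depletion was -0.63 (adjusted p = 0.150). Its call was lost under 9 of 19 alternatives, with adjusted p up to 0.402 without 24 h control replicate 1. The list summed to 4326 and 4556 CPM in the 24 h controls, 3731 and 3565 in global depletion and 3656, 3697 and 3205 in hypodermal depletion, with all depleted libraries below both 24 h controls, while its median changes were 0.21 and -0.05. The 18 h controls, at 3058 and 3123 CPM, lay below all of these.

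For the ribosome that does contain polymerase I products, 12 of 30 ribosome biogenesis factors tested rose and 0 fell in global depletion (median 0.80), and 1 rose in hypodermal depletion (median 0.28), or 2 without any one control library. The count in global depletion was 6 without any one of the 24 h control or global libraries. Of 78 cytosolic ribosomal protein genes tested, 13 fell and 1 rose in global depletion (median -0.07), and 1 fell and 1 rose in hypodermal depletion (median 0.10). The former count of 14 was 8 without 24 h control replicate 1 and 5 without global replicate 2. For comparison, 8.45% of all genes tested were called in global and 5.07% in hypodermal depletion. The calls with the smallest adjusted p were rps-22 and rpl-11.1. The small subunit gene rps-22 fell by 1.26 and by 0.68 (adjusted p = 0.000129 and 0.0425, edgeR). The large subunit gene rpl-11.1, which has a near copy, rose by 2.02 and 2.08 (adjusted p = 0.000134 and 5.8e-05, edgeR). Without 24 h control replicate 2 the adjusted p of rpl-11.1 was 0.0722 and 0.0871, and the hypodermal call of rps-22 was lost under 9 of 19 alternatives, with adjusted p up to 0.399 without 24 h control replicate 1.

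Tissue markers of all 6 types listed, 91 of 93 genes, were present in these whole worms, with nos-2 and opt-2 unlisted. Hypodermis markers summed to 4368 to 5405 CPM in the 24 h controls, 2977 to 4976 in hypodermal and 3153 to 3752 in global depletion, and 5 of 13 tested fell in each depletion. Intestine markers summed to 13955 to 18630 CPM in the 24 h controls and 10589 to 11578 in global depletion, with 5 of 13 lower and 1 higher, and to 13997 to 19872 in hypodermal depletion with 1 lower. Body wall muscle markers had 3 of 15 lower in global depletion and neuron markers 1 of 15 higher. Of all genes tested 3.43% were higher and 5.02% lower in global depletion, and 5.07% were called in hypodermal depletion. Lists of this length may hold 1 call or none at these shares, so the single calls and the zeros below do not mark a tissue. None of the 9 germline and 11 pharynx markers tested was called in either depletion by edgeR or DESeq2, with 1 and 2 (germline) and 2 and 3 (pharynx) at an unadjusted p below 0.05 in global and hypodermal depletion. Their part in the changes of mrpl-45 and mrpl-12 was not tested.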

How the data were processed

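The authors deposited whole-number counts for each gene, taken over the coding sequence of 1 transcript with no normalization, per the file headers and its values. The submitters' processing notes name the WBcel235 build and DESeq2; no source used here gives the aligner, the counting tool or its use of strand. The table holds 10 libraries, of which 1 matches no sample and was not used, and libraries were mapped by their label. For 70 members the gene name table gives the same symbol, the exception being mrpl-14. Gene positions came from the Ensembl annotation of WBcel235, and coding length from the counted transcript for 62 members and from the longest coding sequence for the other 9. No sequence is printed.

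Counts were tested with edgeR 4.0.16 in R 4.3.3: TMM scaling, filterByExpr (minimum count 10, minimum total 15), unlisted counts as 1, group means of all 9 libraries fitted together by robust quasi-likelihood, and Benjamini-Hochberg adjustment over 8035 genes with a threshold of 0.05. The biological coefficient of variation was 0.203. The fit was also run on simulated counts with the same spread for all genes. Since the spread differs between genes in real data, that run does not vouch for the calls here. CPM values carry the TMM factors, and sums take listed counts only. DESeq2 1.42.0, other scalings, filters, values for unlisted counts, thinning to the lowest total, a replicate block and leaving out each library were alternatives. Named members are those called in any comparison, the 4 highest and lowest by level and by fitted change in each 24 h comparison, and mrps-5, and of other lists the 2 genes with the smallest adjusted p; further members were named after their values were seen. The members and lists were chosen with earlier results of these data known. Depth, spread and the number of libraries limit precision, and their parts in the intervals were not tested.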

Additional observations from a re-analysis of the deposited data

Results flagged for a closer look

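No member met a rule for a closer look. Among the genes of the other lists, 2 ribosome biogenesis factors differed between the depletions by the test of that difference itself. The first was nog-1, a GTP-binding factor of large subunit assembly, at 550.7 and 551.6 CPM in the 24 h controls, 2101 and 2034 under global depletion and 1116, 1156 and 1055 under hypodermal depletion, which was higher in global than in hypodermal depletion by 0.898 on the log2 scale (adjusted p = 0.000769, edgeR). The second was pro-2, at 181.5 and 205.3 CPM in the 24 h controls, 484.8 and 538.0 under global depletion and 273.5, 312.2 and 266.7 under hypodermal depletion, with a difference of 0.845 (adjusted p = 0.00423), which did not pass without either global library (0.0504 and 0.169).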

How the results depend on the processing

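In global depletion against the 24 h controls, 2 members were called, and 1 with total counts as the only scaling, without a filter or with unlisted counts as 0, and 0 with libraries thinned to the lowest total; leaving out 1 replicate gave 0 to 2. In hypodermal depletion against the 24 h controls there were 0, and 1 with RLE size factors or thinned libraries, with 0 to 1 when a replicate was left out. Between the depletions there were 0, and 1 with RLE factors, total counts, a mean CPM of at least 20 or a fit of only the groups compared, with 0 to 1 when a replicate was left out. Between 24 h and 18 h controls there were 0, and 2 without a filter or with unlisted counts as 0 and 1 with unlisted counts as 2, with 0 to 0 when a replicate was left out. Against the 18 h controls global depletion had 1, and 7 without a filter, 6 with unlisted counts as 0 and 2 with them as 2, with 0 to 2 when a replicate was left out. Hypodermal depletion had 0 against the 18 h controls, and 4 without a filter, 5 with unlisted counts as 0, 1 with them as 2 and 1 with a mean CPM of at least 20, with 0 to 1 when a replicate was left out. The number of genes tested and the share of all genes called may differ between these settings. Those shares are not given here, so these counts do not set the members apart from other genes. The causes were not tested.

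Directions turned for values near 0 and for those set by 1 library. When 1 library was left out, the change of mrpl-37 in global depletion against the 24 h controls ran from -0.17 (without global replicate 2) to 0.35, with -0.016 without 24 h control replicate 1. That of mrpl-45 ran from -0.069 (without 24 h control replicate 2) to 1.41 in hypodermal depletion, from -1.21 to 0.28 (without the same library) between 24 h and 18 h controls, and from -0.033 (without 18 h control replicate 1) to 0.53 in hypodermal depletion against the 18 h controls. That of mrpl-13 in hypodermal depletion ran from -1.90 to 1.34 (without 24 h control replicate 1). The change of mrpl-12 was 0.37 between the depletions in thinned libraries and 0.074 in hypodermal depletion against the 18 h controls without a filter. Over 19 alternatives the member median ran from -0.21 to 0.01 in global and from -0.28 to 0.08 in hypodermal depletion against the 24 h controls. It ran wider against the 18 h controls, from 0.16 to 0.62 in the 24 h controls, from -0.03 to 0.63 in global and from 0.03 to 0.71 in hypodermal depletion, each highest without a filter. The medians of all genes without a filter were 0.11, 0.10 and 0.11. Total counts as the only scaling put the median of all genes in global depletion at 0.11. The replicate block gave the main count of members in all 6 comparisons (2, 0, 0, 0, 1 and 0). Same-numbered libraries deviated together with correlations of -0.074 to 0.128, the highest between hypodermal and global replicate 1. These correlations cannot decide whether same-numbered libraries shared a batch or culture. In groups of 2 the deviations of the libraries mirror each other, and the control libraries held few counts. Of other genes named, atp-2 (adjusted p = 0.0753) and atfs-1 (0.151) lost their call in hypodermal depletion under the block. Few libraries per group and low control depth, lowest at 18 h, limit what can be seen.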
